A study of Homo sapiens with 2 samples.

Results

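The genes described here are the long intergenic noncoding RNA (lincRNA) genes that carry a LINC number as their symbol, as they appear in a list of RNA peaks that came down with PTBP1. They were taken by symbol, LINC followed by digits, from the authors' lncRNA peak list, and LINC00473 and LINC00602 were set apart. This gave 118 LINC genes of the 1955 names in the list (6.04%, 95% Wilson interval 5.06 to 7.18%), with 161 of its 2849 peaks (5.65%, 4.86 to 6.56%). RNA immunoprecipitation followed by sequencing (RIP-seq) had been done in MKN-28, an established gastric cancer cell line, untreated, with 1 library from an anti-PTBP1 antibody and 1 library from normal rabbit IgG as the negative control. Every peak is therefore 1 PTBP1 library set against 1 IgG library. There was no replicate, so no difference was tested, and the intervals cover counting error only.

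A lincRNA is a spliced, often polyadenylated transcript that lies between protein-coding genes and encodes no long protein. Most are made at low levels in few tissues, and a LINC number is given to such a gene by its position alone, before any function is known. PTBP1 (polypyrimidine tract binding protein) is an hnRNP protein that binds stretches of U and C, with UCUU and CUCUCU among its known motifs, and it acts on splicing, RNA stability and translation. A RIP-seq peak in a lincRNA would be read as RNA that came down with the protein, whereas a peak beside a lincRNA is only named for it by distance. Where each peak lies was therefore described for every gene. The deposited files hold peaks and no expression levels, so neither the level of a LINC gene in MKN-28 nor the cell type markers could be examined.

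Each peak came with the number of tags (sequenced reads) in it, a fold enrichment of PTBP1 over IgG, a p score (the negative log10 of the p-value, times 10) and a false discovery rate (FDR). Of the 118 symbols, 116 were found in the RefSeq gene table of GRCh38.p14, where 114 are lncRNA genes, 1 is a transcribed pseudogene and 1, LINC00854, is now the protein-coding gene CCDC200. Besides LINC00854, 5 of the 116 carry another name there. LINC00672 and LINC00998 were not found, so a later name of either was not seen. LINC01021 is PURPL, an RNA induced by p53 that restrains p53, and LINC00346 is PRECSIT. LINC00535, LINC01136 and LINC01184 are named CIBAR1-DT, BTG2-DT and SLC12A2-DT, as divergent transcripts of the coding genes they face. RefSeq lists 902 LINC symbols up to the highest number among the members, and 110 of these had a peak (12.2%, 10.2 to 14.5%).

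Sequences are shown for 4 LINC genes whose peak reached the region around the transcript start, since this is where the peak and the annotated RNA meet. Each is the RefSeq window from 250 bases before to 50 bases after the start, on GRCh38.p14, written 5′ to 3′ on the strand of the gene. Capitals mark TCTTC, the DNA form of a PTBP1 motif, or GAAGA, which is the same motif on the opposite strand. LINC01389 (chr1:47437268-47437567, minus strand) had the highest fold of the 4, and LINC00449 (chr13:99501014-99501313, minus strand) the most tags. LINC01003 (chr7:152463874-152464173, plus strand) holds TCTTC on its own strand. LINC01176 (chr7:30390635-30390934, plus strand) holds the motif on the opposite strand only, as GAAGA.
LINC01389: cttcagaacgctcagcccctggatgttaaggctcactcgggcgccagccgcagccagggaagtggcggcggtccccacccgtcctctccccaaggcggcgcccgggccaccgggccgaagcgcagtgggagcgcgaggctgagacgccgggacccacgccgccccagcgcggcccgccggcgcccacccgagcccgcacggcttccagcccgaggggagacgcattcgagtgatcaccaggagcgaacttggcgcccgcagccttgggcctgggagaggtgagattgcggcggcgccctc
LINC00449: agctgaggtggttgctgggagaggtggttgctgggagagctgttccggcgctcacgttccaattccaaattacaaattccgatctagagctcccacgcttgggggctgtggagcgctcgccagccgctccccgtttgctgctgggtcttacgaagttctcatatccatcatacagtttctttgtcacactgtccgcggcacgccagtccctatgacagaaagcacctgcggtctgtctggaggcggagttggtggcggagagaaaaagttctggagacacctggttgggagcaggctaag
LINC01003: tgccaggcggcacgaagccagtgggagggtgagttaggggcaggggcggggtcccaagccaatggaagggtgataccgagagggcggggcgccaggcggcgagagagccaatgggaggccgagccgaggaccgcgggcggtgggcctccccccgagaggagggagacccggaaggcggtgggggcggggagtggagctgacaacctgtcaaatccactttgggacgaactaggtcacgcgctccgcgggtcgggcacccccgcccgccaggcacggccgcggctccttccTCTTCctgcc
LINC01176: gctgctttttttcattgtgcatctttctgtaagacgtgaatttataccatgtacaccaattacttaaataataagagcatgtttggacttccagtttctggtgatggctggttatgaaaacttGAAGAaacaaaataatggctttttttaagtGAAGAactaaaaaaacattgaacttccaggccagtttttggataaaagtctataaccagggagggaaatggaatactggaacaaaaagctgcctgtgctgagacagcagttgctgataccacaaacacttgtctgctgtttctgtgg

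On the files' hg19 coordinates, the LINC01389 peak ran from 367 bases before its start to 888 bases after it, and the LINC00449 peak from 786 bases before its start to 62 bases after it. Neither window holds TCTTC on either strand. The LINC01003 peak began 38 bases after the start, and the single TCTTC of its window, in a pyrimidine run of 15 bases, is close to that point. LINC01176, with a peak from 69 bases before to 167 bases after the start, has GAAGA 2 times and TCTTC itself 0 times. Each GAAGA lies before the transcript start and before the first base of the peak. Over the 86 windows found for 81 members, 47 hold TCTTC on either strand (54.7%), against 51.1% of all 35116 windows. CTCTCT on either strand was in 19 of the 86 (22.1%), against 24.4% of all windows. The windows of LINC genes thus held these letters about as often as others. Most of each window lies before the start, and both strands were counted, so these shares do not describe motifs in the RNAs. A match is not a binding site, and 10 of the 118 members had a peak in the window at all (8.47%).

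The enrichment of the LINC peaks was like that of the list they came from. The median fold of the 161 LINC peaks was 7.36 (quartiles 5.22 and 9.61, range 2.25 to 29.45), against 7.31 for all 2849 peaks (quartiles 5.22 and 10.1), and the 95% interval of the LINC median, 7.09 to 8.02, includes 7.31. The 860 peaks of the other 570 genes of the RefSeq lncRNA class also had a median of 7.36. LINC peaks held a median of 12 tags (quartiles 8 and 26), the same median as the whole list. With the best fold taken per gene, 34 of 118 LINC genes reached a fold of 10 (28.8%, 21.4 to 37.6%), against 33.7% of the 1955 names. The members' share is near this background and sets them apart in neither direction. FDR ran from 43.1 to 100% over the LINC peaks, with a median of 45.05%, and 138 of 161 were under 50%. The 5 LINC peaks at 100%, of LINC01054, LINC00707, LINC00971, LINC00998 and LINC00449, had the highest p scores, 186.17 to 433.67, so a strict FDR limit would keep no LINC peak and an FDR under 50% would drop the strongest.

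Among the 10 LINC genes with the highest folds, the peaks were small and mostly far from the annotated RNA. LINC00971 led with 29.45-fold from 16 tags on chromosome 3 (84241996 to 84242274), 676591 bases beyond its start, at an FDR of 100%. LINC00511, studied as a growth-promoting RNA in several tumours, had 22.09-fold from 12 tags on chromosome 17 (70738850 to 70739194), 102411 bases before its start. LINC01343 had the same 22.09-fold and 12 tags on chromosome 1 (38891156 to 38891488), 210883 bases before its start. Then came LINC01375 (19.1-fold, 12 tags), LINC00607 and LINC01099 (18.4-fold, 10 tags each) and LINC01626 (17.4-fold, 12 tags). LINC00887 and LINC01106 stood at 16.56-fold with 12 and 10 tags, and LINC01467 at 15.66-fold with 9. Of the 10, LINC00887 alone had its best peak in its own transcript, and the LINC01626 peak lay within the transcript of LINC00472.

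High folds mostly came with few tags. The 13 LINC peaks of at least 15-fold held 9 to 16 tags. Of the 38 peaks of at least 10-fold, 34 held fewer than 20 tags (89.5%, 75.9 to 95.8%), against 90.0% (87.6 to 92.0%) of the 722 such peaks of the list. Many folds were whole multiples of 1.84, to within 0.006: 36 of 161 LINC peaks (22.4%) and 21.0% of all peaks. In 13 of the 161 the fold was all of the peak's tags times 1.84, so that the ladder of 6, 8, 10, 12 and 16 tags reads as 11.04, 14.72, 18.4, 22.09 and 29.45-fold. LINC00971, LINC00511, LINC01343, LINC00607 and LINC01099 are all on it. For these peaks the order of the folds is the order of the tags, and a fold of 11.04 is 6 tags. What set this step was not tested.

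**Figure D1:**
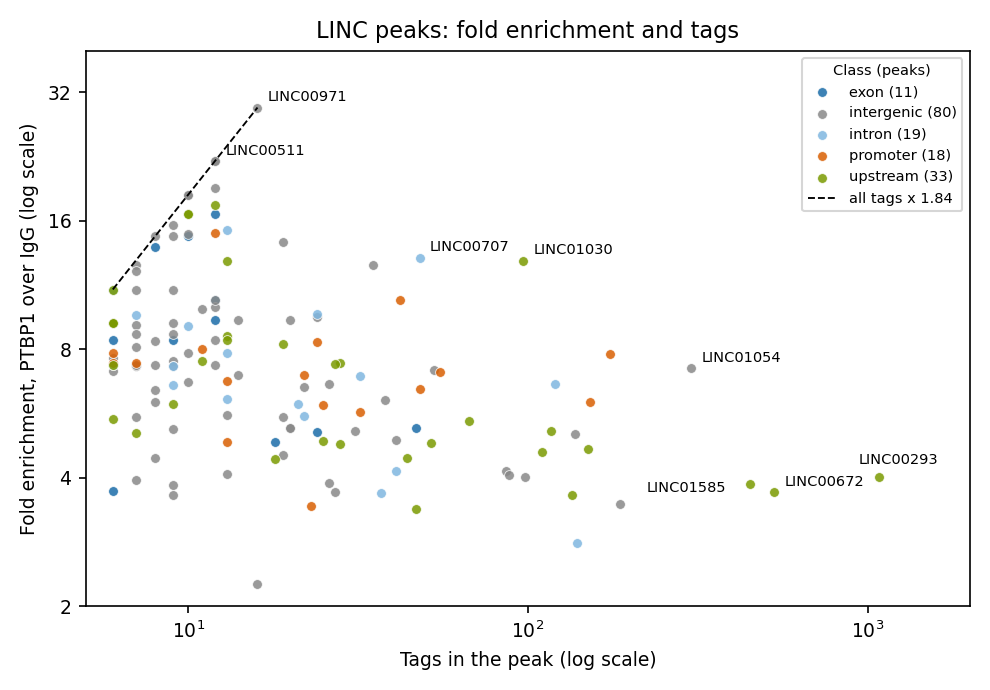
Fold enrichment of PTBP1 over IgG (y axis, log scale) against tags (x axis, log scale) for the 161 LINC peaks, 1 point per peak, coloured by the authors' class. The dashed line is all tags times 1.84. The peaks of at least 15-fold hold 9 to 16 tags, and the 14 peaks of 100 tags or more lie between 2.81 and 7.78-fold.

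The peaks with the most tags had low folds and were again mostly outside the RNA. LINC00293 had 1084 tags at 4.02-fold, upstream of its start by 10050 bases. LINC00672 had 532 tags at 3.70-fold and LINC01585 had 452 at 3.87-fold, both upstream as well. LINC01054 had 302 tags at 7.22-fold on chromosome 13 (115088972 to 115092759), with the highest p score of any LINC peak, 433.67, and an FDR of 100%. It was 8558 bases past the start of a transcript that spans 4192 bases. The coding gene next to LINC01054 in the RefSeq order is CHAMP1, for which the mRNA list names no peak. Overlap was examined only for transcripts of the 2 peak lists, so whether this peak lies over CHAMP1 is not known here. LINC00635 had 187 tags (3.48-fold), LINC00449 had 175 (7.78-fold), LINC00163 had 152 (6.03-fold) and LINC00854 had 150 (4.66-fold). LINC01599, with 140 tags and 2.81-fold in an intron, and LINC00958, with 138 tags and 5.07-fold, closed the 10. In all, 14 LINC peaks held at least 100 tags (8.70%, 5.25 to 14.1%), against 9.69% of the list, and 3 of the 14 overlapped the transcript they were named for.

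Over all peaks, LINC peaks were more often intergenic and less often at a promoter than the list, but this was not so clear among peaks with more tags. By the authors' classes, 80 of the 161 LINC peaks were intergenic (49.7%, 42.1 to 57.3%), against 32.4% of all peaks (30.7 to 34.2%) and 38.6% of those of other RefSeq lncRNA genes (35.4 to 41.9%). Promoter peaks were 18 of 161 (11.2%, 7.19 to 17.0%), against 23.3% of all peaks (21.8 to 24.9%) and 22.3% for other RefSeq lncRNA genes (19.7 to 25.2%). The 33 upstream (20.5%), 19 intron (11.8%) and 11 exon peaks (6.83%) made up the rest. The exon share was 9.72% in the list, which also holds noncoding isoforms of coding genes, and 2.79% (1.88 to 4.12%) for other RefSeq lncRNA genes. The intervals of the LINC genes and of the other lncRNA genes do not overlap for the intergenic and promoter classes, narrowly so for the intergenic class, and do overlap for exons. Peaks that share a gene are not independent, and no test was made. Among peaks of at least 20 tags, a setting whose values for the other sets were added after seeing the data, 19 of 56 LINC peaks were intergenic (33.9%, 22.9 to 47.0%), against 33.4% (28.3 to 39.0%) for other RefSeq lncRNA genes and 28.3% (25.6 to 31.3%) in the list. The promoter share was then 17.9% (10 to 29.8%), against 27.0% (22.3 to 32.4%) and 27.8% (25.1 to 30.7%), with intervals that overlap.

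**Figure D2:**
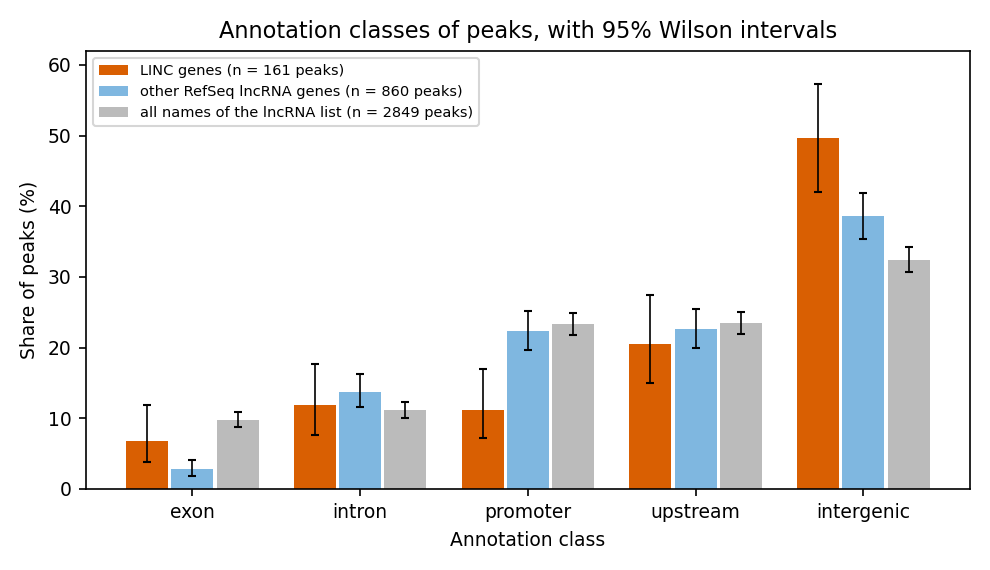
Share of peaks in each of the authors' 5 classes (y axis, percent, from 0) for LINC genes, other RefSeq lncRNA genes and all names of the lncRNA list, with 95% Wilson intervals as bars. LINC genes have 49.7% intergenic and 11.2% promoter peaks, against 38.6% and 22.3% for other lncRNA genes, with all peaks counted. At 20 tags or more the LINC shares are 33.9% and 17.9%, against 33.4% and 27.0%.

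Few LINC peaks were named for a coding gene as well. Only 8 of 161 stood at the same position in the mRNA list (4.97%, 2.54 to 9.50%), against 37.7% of all peaks, 19.3% (16.8 to 22.1%) of the other RefSeq lncRNA peaks and 27.0% of the 311 peaks of 201 antisense names. LINC symbols are given to genes set apart from coding genes, so the naming itself bears on this comparison. Counted by position instead, 16 of 161 LINC peaks shared at least 1 base with a coding transcript of the mRNA list (9.94%, 6.21 to 15.5%), against 18.4% (17.0 to 19.9%) of all peaks and 24.7% (21.9 to 27.6%) of the other RefSeq lncRNA peaks. The nearest coding gene that did not overlap the lncRNA gene was also found on each side, with noncoding genes passed over. On at least 1 side it was a gene of the mRNA list for 52 of 116 members (44.8%, 36.1 to 53.9%). This compares with 292 of 570 other lncRNA genes (51.2%, 47.1 to 55.3%).

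A peak overlapped the member's own transcript, by at least 1 base from its start to its end with introns included, in 37 of 118 LINC genes (31.4%, 23.7 to 40.2%). This compares with 40.9% of all names (38.7 to 43.1%) and 36.5% of the other RefSeq lncRNA genes (32.6 to 40.5%). For the remaining 81 members no peak touched the transcript. Of the 118 peaks outside their own LINC transcript, 13 lay over a coding transcript of the mRNA list. Another 3 lay over another name of the lncRNA list only, and 102 over no transcript listed in either. Those of at least 10-fold were no exception, since 28 of 38 lay outside the transcript and 22 of the 28 were intergenic. Counted by gene, 9 of the 34 members of at least 10-fold had an overlapping peak of that fold.

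The LINC RNAs with a peak inside them are those for which the data bear on the RNA itself. There were 30 exon or intron peaks in 26 genes, and all 30 overlapped the listed transcript. Peaks were counted for the gene they were named for. The 17.4 and 16.56-fold peaks of LINC01626, which lie within LINC00472, are therefore not among them. LINC00707, an RNA studied in gastric and lung tumours, had peaks of both kinds. Its intron peak on chromosome 10 (6843734 to 6844047) held 48 tags at 13.11-fold with a p score of 350.17 and an FDR of 100%, and its exon peak (6884413 to 6884854) held 10 tags at 14.72-fold, 99.6% of the way along the transcript. The exon peak of LINC00887 (chromosome 3, 194020968 to 194021533) was 16.56-fold with 12 tags, and the intron peak of LINC01276 was 15.21-fold with 13. An exon peak of LINC01355 had 8 tags at 13.92-fold. The intron peaks of LINC01619 and LINC00840 each reached 11.04-fold on 6 tags, the fewest of any LINC peak.

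Below 11-fold, LINC00997 had an exon peak of 12 tags (10.44-fold) and LINC01021, the p53-induced PURPL, an intron peak of 24 tags (9.67-fold). LINC00243 followed with 7 tags in an intron (9.61-fold) and LINC00689 with 12 tags in an exon (9.39-fold). LINC00673, an RNA tied to turnover of the phosphatase PTPN11, had 10 tags in an intron at 9.06-fold. Of the 30 peaks, 10 had their centre in the last 20% of the transcript's genomic span and 3 in the first 20%. Peaks near a start are mostly classed as promoter, and with the 12 promoter peaks centred in a transcript included, 11 of 42 lay in the first 20% and 11 in the last. The peaks near the end included the exon peaks of LINC00467 (99.8% along, 6 tags, 3.73-fold), LINC00707 and LINC00659 (96.5% along, 9 tags, 8.41-fold). Both intron peaks of LINC01138 were there too, at 96.4% and 92.5%, with 22 and 9 tags at 5.59 and 6.61-fold. The median exon peak was 8.42-fold and the median intron peak 7.31-fold, with 11 and 19 peaks and overlapping quartiles.

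Promoter peaks, which in these members lay within 1985 bases of the start, numbered 18 and belonged to 19 genes. LINC00367 had the highest fold (15.01, 12 tags, 1240 bases past the start), then LINC01389 (10.44, 42 tags), LINC01124 (9.2, 6 tags), LINC01136 (8.31, 24 tags) and LINC00629 (8.02, 11 tags). LINC00313, LINC00449, LINC00674, LINC01176 and LINC00854 lay between 7.83 and 7.09-fold. The peaks closest to a start were those of LINC01176 (50 bases past it), LINC01184 (57), LINC01389 (261), LINC00449 (362 before it) and LINC00472 (379 past it). With a median of 22.5 tags, against 10 for the intergenic class, promoter peaks held more tags, at about the same fold (median 7.255, against 7.44 for intergenic peaks).

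Several LINC peaks were also named for a coding gene. The LINC00449 peak (175 tags, 7.78-fold, FDR 100%) was also named for TM9SF2, an endomembrane protein gene on the opposite strand. LINC01136 shared 24 tags at 8.31-fold with BTG2, a p53-induced inhibitor of proliferation. LINC01184 shared 25 tags at 5.93-fold with SLC12A2, the Na-K-Cl cotransporter. LINC01389 shared both of its peaks with FOXD2, a forkhead transcription factor gene, 42 tags at 10.44-fold and 13 tags at 6.73-fold. LINC00696 shared an upstream peak of 47 tags (3.38-fold) with DUSP7, a MAP kinase phosphatase gene. By position, the peaks of LINC00449 and LINC01389 overlapped both transcripts of the pair, and since the peaks carry no strand, which of these RNAs gave the tags cannot be told apart. The LINC01136 peak overlapped BTG2 alone, the LINC01184 peak overlapped LINC01184 alone, and the LINC00696 peak overlapped neither transcript. Another 3 peaks were named for a pair of LINC genes. The peak of LINC00115 and LINC01128 (48 tags, 6.47-fold) overlapped LINC00115 alone, and that of LINC00472 and LINC01626 (23 tags, 3.44-fold) overlapped LINC00472 alone. The peak of LINC00680 and LINC00680-GUSBP4 (20 tags, 5.22-fold) lay 490383 bases before both starts and overlapped neither.

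Some peaks named only for a LINC gene lay inside a coding transcript upstream of it, a pattern examined after the values were seen. Of 11 such peaks, 10 were on a coding gene of the same strand as the LINC gene, and 9 of these had their centre in the last 5000 bases of the coding transcript. The 9 belonged to 7 LINC genes and 7 coding genes. The LINC00672 peak of 532 tags had its centre 1625 bases before the end of LASP1, which encodes an actin-binding LIM protein. The LINC01585 peak of 452 tags was 1737 bases before the end of CRTC3, a CREB coactivator gene. It also lay over the transcript of CRTC3-AS1, and which of these RNAs gave the tags cannot be told apart. LINC00926 had 135 tags (3.65-fold) 1183 bases before the end of TCF12, a bHLH transcription factor gene, and LINC01039 had 117 tags (5.15-fold) 926 bases before that of TM9SF2.

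The same was seen with LINC01030 and TMEM64 (97 tags, 12.9-fold, 2827 bases before the end) and with LINC00612 and A2M, the alpha-2-macroglobulin gene (6 tags, 7.36-fold, 4869 bases). LINC00942 had all 3 of its peaks there, 28, 52 and 27 tags at 7.42, 4.82 and 7.39-fold, in a row 4051, 2490 and 555 bases before the end of ERC1. None of these 9 peaks touched the LINC transcript it was named for. They were 9 of 161 LINC peaks (5.59%, 2.97 to 10.3%), against 14 of 860 peaks of other RefSeq lncRNA genes (1.63%, 0.972 to 2.71%) and 58 of 2849 in the list (2.04%, 1.58 to 2.62%). The pattern was picked from these same LINC peaks, and 3 of the 9 were neighbouring peaks of LINC00942. The comparison therefore cannot tell whether LINC genes differ from the others. Coding transcripts could be examined only where the mRNA list named a peak for them.

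**Figure D3:**
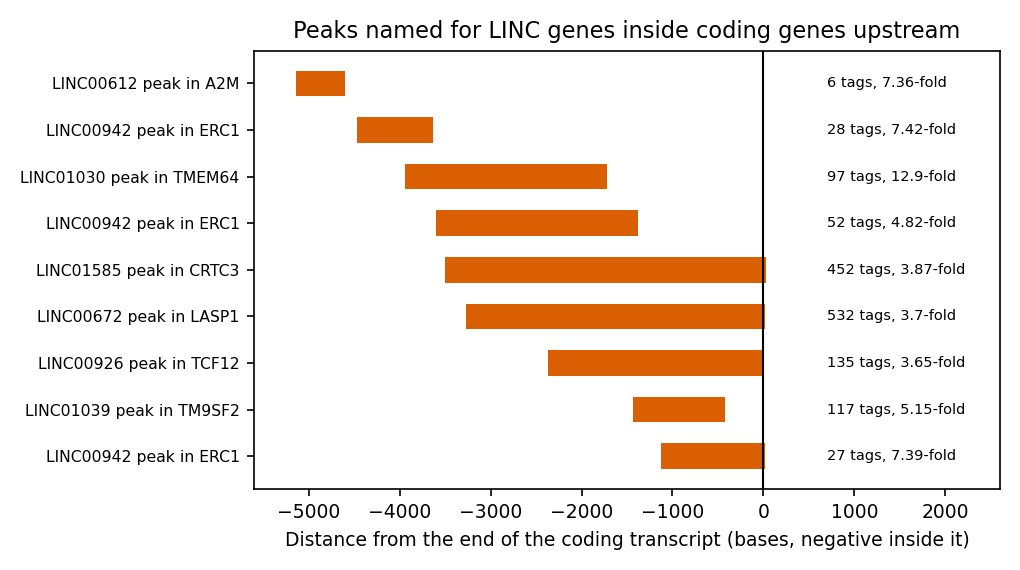
Position of the 9 peaks named for LINC genes that lay in the last 5000 bases of a coding transcript (x axis, bases from the end of the coding transcript, negative inside it), 1 bar per peak from its first to its last base, with its tags and fold. The largest, 532 tags in LASP1 and 452 tags in CRTC3, run up to the end of the coding transcript. The peak in CRTC3 also lies over CRTC3-AS1.

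Of the 118 members, 85 had 1 peak (72.0%, 63.3 to 79.3%), 23 had 2, 7 had 3 and 3 had 4, and 65.3% of all names had 1 peak. Successive peaks of a gene were close together in a minority of pairs, and such gaps were not counted for other genes of the list. Of 46 such pairs, 14 had a gap of under 2000 bases, at 11 genes, and 3 had a gap of over 100000 bases. LINC01269 had 4 peaks on chromosome 14 between 25021 and 40944 bases past its start, beyond a transcript that spans 13456 bases, with 35, 12, 19 and 9 tags at 12.59, 10.44, 4.52 and 9.2-fold. LINC00887 paired its exon peak with 3 upstream peaks of 6, 13 and 67 tags at 5.49, 8.39 and 5.43-fold. LINC00334 had 4 peaks of 6 to 9 tags and 5.94 to 9.2-fold, all of them before its start.

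The members with 3 peaks were LINC00689, LINC00854, LINC00942, LINC01005, LINC01503, LINC01599 and LINC01626. In LINC00689 an intron peak of 13 tags (6.12-fold) and an exon peak of 12 tags (9.39-fold) were 5 bases apart, and the third lay 31045 bases before the start. LINC01599 had intron peaks of 140 and 37 tags at 2.81 and 3.68-fold. LINC01626 had 2 peaks of 12 and 10 tags at 17.4 and 16.56-fold, 23 bases apart, which lie within the transcript of LINC00472 on the other strand. LINC01005 had 3 peaks of 6 to 8 tags more than 100000 bases past its start. The 3 peaks of LINC00854 held 55, 150 and 27 tags at 7.09, 4.66 and 3.7-fold, all before its start.

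**Figure D4:**
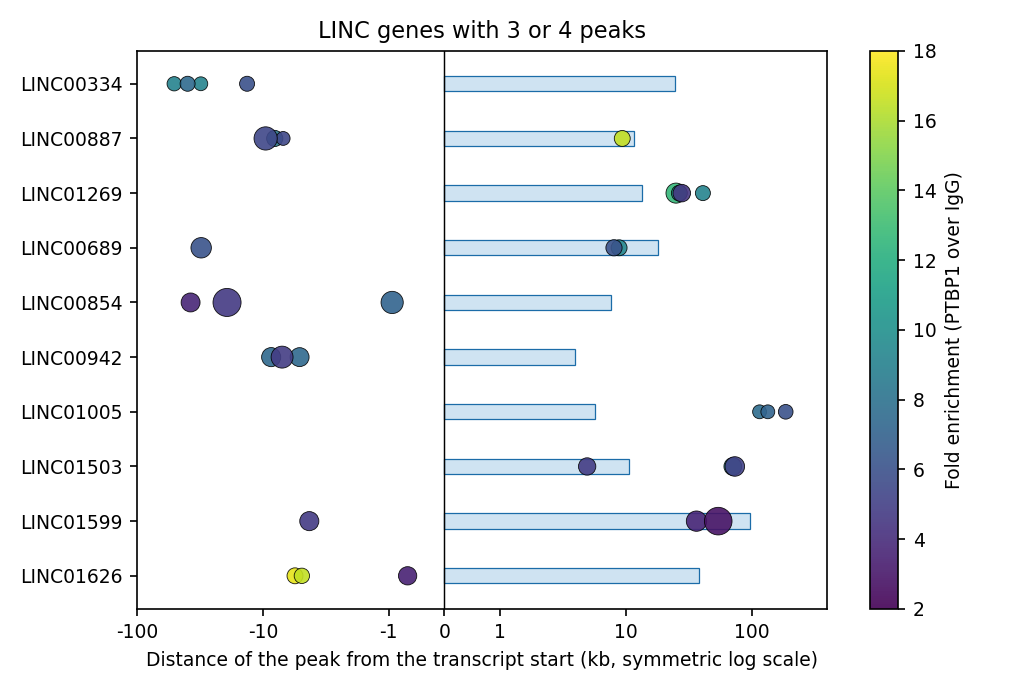
Peaks of the 10 LINC genes with 3 or 4 peaks by distance from the transcript start (x axis, kb, symmetric log scale), 1 point per peak, coloured by fold and larger with more tags, with the listed transcript as a pale bar. LINC00887, LINC00689, LINC01503 and LINC01599 have a peak inside the bar, and the 4 peaks of LINC01269 lie past its end.

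The 80 intergenic LINC peaks were far from the genes they were named for. Their median distance from the start was 50032.5 bases (quartiles 27560.5 and 116136), against 36846 in the list and 46737 for other RefSeq lncRNA genes. Over 100000 bases lay between peak and start in 24 of 80 (30%, 21.1 to 40.8%), against 18.7% (16.3 to 21.4%) in the list and 22.3% (18.1 to 27.1%) for other lncRNA genes. LINC01099 had the farthest, 1260571 bases before its start (18.4-fold, 10 tags), and another 379053 bases before it (4.08-fold, 13 tags). After LINC00971 came the peaks of LINC00680 (490383 bases before the start, 5.22-fold), LINC01262 (424445, 7.34-fold) and LINC00838 (338539, 11.04-fold from 7 tags). Intergenic peaks were before the start in 42 cases and past it in 38. The share past the start was 47.5% (36.9 to 58.3%), against 47.0% (41.7 to 52.4%) for other RefSeq lncRNA genes and 62.2% (59.1 to 65.3%) in the whole list.

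LINC peaks were spread unevenly over the chromosomes. Chromosome 13 held 14 of the 161 (8.70%) in 12 genes, against 54 of all 2849 peaks (1.9%), and chromosome 21 held 8 (4.97%), against 1.19%. RefSeq places 140 of the 902 LINC symbols on chromosome 13, of which 11 had a peak, and 36 on chromosome 21, of which 5 had one. Chromosome 7 held 14 peaks as well, and 7 of its 28 LINC symbols had a peak. None of the 24 LINC symbols on chromosome 18 had one.

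Lists of LINC genes known from other work were read against the 12.2% of the 902 RefSeq LINC symbols that had a peak. The 902 are symbols that RefSeq still lists as LINC. They leave out LINC00346 and LINC00998, which are counted below, so 12.2% is not an exact background for the lists. It is least so for genes later given another name. Of 30 LINC genes studied in tumours, 10 had one, with a median best fold of 8.12, against 8.05 for all 118 members. LINC00511 and LINC00707 were over 10-fold. The others were LINC00467 (9.2), LINC00673 (9.06), LINC00659 (8.41), LINC00963 (7.83, 10 tags), LINC00958 (5.07), LINC00346 (4.89, 25 tags), LINC00662 (4.46, 44 tags) and LINC00472 (3.44). In 5 of the 10 a peak overlapped the transcript. Folds here are of peaks named for each gene. The 17.4 and 16.56-fold peaks named for LINC01626 also lay within the transcript of LINC00472 and were not counted for it. The 9.2-fold peak of LINC00467, with 6 tags, lay outside it, 16027 bases before the start and over the coding gene TRAF5. Its peak inside the transcript was 3.73-fold, also with 6 tags. Of 11 LINC genes reported to encode a micropeptide, 3 had a peak, namely LINC00467, LINC00689 and LINC00998. LINC00998, which encodes the small membrane protein SMIM30, had 41 tags at 4.9-fold with an FDR of 100%, but 117501 bases before its start. It was also the member with a peak in a list of 10 LINC genes later given a functional name, a list that did not hold the renamed members above. Of 9 known from neural or pluripotent cells, LINC01108 had one, with 19 tags at 14.23-fold, 225108 bases before its start. The lists were chosen with results of these data known, and which of their genes MKN-28 expresses is not shown by the files.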

How the data were processed

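MKN-28 RNA from 1 PTBP1 and 1 IgG immunoprecipitation was sequenced after ribosomal RNA removal. The submitters' processing notes name cutadapt (1.9.3), Bowtie2 (2.2.4) and hg19, and no peak caller is named in the sources used here. The authors deposited tag counts per peak, without saying from which library. They also deposited the fold as a ratio over IgG, the p score and the FDR in percent. Library totals are unknown here. Promoter rows of members (29) repeated in the lncRNA promoter table, and the mRNA promoter table was not used.

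Peaks were counted once per position with pandas (2.3.3), scipy (1.17.1), numpy (2.4.6) and matplotlib (3.10.9) under Python (3.11.15). The lower listed transcript end was taken as 1 base before the first base: 957 of 1129 single-transcript genes then had the RefSeq length, against 60 without this. Overlap needed at least 1 base. The fold step of 1.84 was the one that fitted most folds of both lists. Shares have 95% Wilson intervals. The scripts were tested on simulated data.

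Members and lists were chosen with earlier results of these data known. Named were the 10 genes highest in fold, tags, exon or intron fold and promoter fold, the 5 with the most peaks, the nearest promoter peaks, the farthest peaks, the most tags shared with coding genes, and list members with a peak. LINC00115, LINC00535, LINC00612, LINC00926, LINC01003, LINC01030, LINC01039, LINC01128 and LINC01138 fall outside this and were chosen after their values were seen. Alternatives were stricter peaks, merged peaks, other overlaps, RefSeq lncRNA symbols only and a fold of 8.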

Additional observations from a re-analysis of the deposited data

How the results depend on the processing

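No paired analysis was possible because each group had 1 library. Of 50 values under the alternatives, 35 stayed within the counting interval or, for counts, near the count as deposited, and 15 did not. The median fold of LINC peaks was 8.05 with 1 value per gene, 8.33 for peaks of at least 5-fold, 9.275 for a p score of at least 50 and 5.22 for at least 20 tags. LINC genes with a peak fell to 63 and LINC peaks to 72 at a p score of at least 50, and to 52 genes and 56 peaks at 20 tags. The share of genes of at least 10-fold was 42.9% at that p score, 7.69% at 20 tags, and 50.8% with 8-fold as the bound. At 20 tags the exon share was 3.57%, the intergenic share 33.9% and the promoter share 17.9%. The share of peaks in the mRNA list was 9.94% with 1 base shared with a coding transcript. The share of genes with an overlapping peak stayed between 28.6 and 39.0% in all alternatives, and merging changed nothing. Stricter rules keep fewer peaks by construction. Tags per peak limit these data: 61 of 161 LINC peaks held fewer than 10 (37.9%).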

Other observations

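Among names that begin with LINC, 122 in all, LINC-PINT and LINC-ROR carry no number and were not counted. LINC-PINT, a p53-induced RNA, had 6 tags at 11.04-fold in an intron on chromosome 7 (130711274 to 130711598), inside its transcript. LINC-ROR, known from pluripotent cells, had 8 tags at 6.72-fold on chromosome 18 (54696368 to 54696796), 42768 bases past its start and outside its transcript.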
